A study of Mus musculus with 6 samples.

Results

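The small ribosomal subunit is built from ribosomal RNA and a set of proteins, and the mRNAs of 33 of these proteins were followed in RNA that co-precipitated with LARP1 from mouse dorsal root ganglia. The 33 genes were chosen by identifier: the laminin receptor homologue Rpsa, the Rps genes from Rps2 to Rps29, Fau, which encodes the subunit's eS30 protein, and Rack1, a scaffold protein that sits on the subunit's head. All 33 were among the 16976 Ensembl identifiers of the count table, of which 13236 had a count in some library. The table pairs no identifier with a symbol; the symbols came with the choice of genes.

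The samples were wild-type dorsal root ganglia, which hold the cell bodies of sensory neurons, in 2 groups of 3 libraries: injured, after sciatic nerve injury, and uninjured. An anti-LARP1 antibody was used on ganglion lysate, and the recovered RNA was read as nanopore cDNA. The labels state neither the time since injury nor the age, sex or number of the animals, nor whether ganglia were pooled. No input RNA and no control precipitate were analysed here, so each value is a level within the LARP1 precipitate; more RNA in the tissue and more of it bound to LARP1 cannot be told apart, nor can more cells of a type and more RNA per cell.

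The subunit binds the mRNA and decodes it, and the mRNAs of its proteins are known to be regulated together in translation. Their transcripts typically start with a C followed by an unbroken run of pyrimidines, the terminal oligopyrimidine (TOP) tract. LARP1 binds the cap and this tract, holds such mRNAs back from translation when mTOR signalling is low, and protects them from decay. In sensory neurons, mRNAs of ribosomal proteins are also known to be carried into axons.

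The starts of 10 genes are shown because they carry the groups described below: genes higher after injury (Rps25, Rps23, Rps9, Rack1, Rps24), a gene that hardly differed (Rps10) and genes lower after injury (Rpsa, Rps15a, Rps15, Rps26). Each is 30 bases of RefSeq sequence, build GRCm38.p6, 5′ to 3′ on the gene's strand, from 8 bases before the annotated transcription start to the base 22 positions into the transcript. Capitals mark the longest unbroken pyrimidine run, from its first C, where a run of at least 5 bases lay in the stretch shown. Rps24 has 2 annotated starts, and the upstream one is shown.
Rps25 (chr9:44407706-44407735, plus strand): gacatcttagcgaggctgctgtggtctaca
Rps23 (chr13:90923114-90923143, plus strand): gctgggcggggCTTCCCgcaatgccttgtg
Rps9 (chr7:3704033-3704062, plus strand): tgtCTCTCTTTgtctcgggcctgagttcgt
Rack1 (chr11:48800352-48800381, plus strand): cgCTCTTTCTTTTTCTCCacagggtcgtgg
Rps24 (chr14:24490670-24490699, plus strand): tggggtCCTTCCTTgcgcgttgatatgatt
Rps10 (chr17:27635223-27635252, minus strand): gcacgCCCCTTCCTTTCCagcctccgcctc
Rpsa (chr9:120127758-120127787, plus strand): atttaaggacgtcatttccggccgcccgtc
Rps15a (chr7:118116126-118116155, minus strand): tctgccatCTTCCCTCgccggtgagtgagt
Rps15 (chr10:80292423-80292452, plus strand): gagctcgcgataactgcgcaagcgcagccc
Rps26 (chr10:128626485-128626514, minus strand): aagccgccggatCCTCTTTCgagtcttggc

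Runs at the annotated start were found in genes that were higher, hardly different and lower after injury. The run was 16 bases long in Rack1, 13 in Rps10 and 8 in Rps9, Rps24, Rps15a and Rps26. In Rps25 a run of 14 bases began 22 bases before the annotated start and in Rps15 one of 11 bases began 25 bases after it, both outside the stretches shown. RefSeq start windows matched 25 of the 33 genes. A C within 5 bases of the annotated start that opened at least 8 unbroken pyrimidines, C or T, on the gene's strand, a rule chosen after the data were seen, was found in 10 of them: Rps6, Rps9, Rps10, Rps15a, Rps18, Rps24, Rps26, Rps27, Fau and Rack1. By window, since 3 genes have several, it was 34.5% of 29 member windows and 4.37% of all 32851 windows. With at least 5 pyrimidines and a distance of up to 25 bases, it was 82.8% against 55.6%. Annotated starts can lie some bases from the start a tissue uses, so a missing run says only that the letters are not in that window.

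Within each group the 3 libraries were nearly as alike as counting noise allows, so they were summed and counted as 1 sample per group. Uninjured libraries held 116186 to 116608 counts and injured libraries 211337 to 211879. For all genes that reached 15 counts, variance among uninjured libraries was 1.16 times, and among injured libraries 1.12 times, that of counting alone; over the 32 members that reached 15 counts it was 1.23 and 1.39 times. Levels are counts scaled to the summed total of the group, in the usual CPM unit (a CPM of 8.60 is 3 uninjured and one of 4.73 is 3 injured counts), and carry 95% exact Poisson intervals. A ratio is injured over uninjured CPM unless stated otherwise, with a 95% exact Clopper-Pearson interval. The intervals cover counting error only, since each group counts as 1 sample and no spread between animals enters. They may be too narrow even for counting error, since the cDNA was amplified and reads of 1 molecule were not merged. The differences have no replicate check, and group and any batch cannot be told apart. Counts are not divided by transcript length, so levels of different genes are not compared; ratios are.

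After injury the 33 mRNAs together took a larger share of the precipitate, and the genes differed unevenly. Without injury the share of all counts per library was 2.53%, 2.59% and 2.54%; with injury it was 2.88%, 2.95% and 2.90%. Every injured library lay above every uninjured one. Summed by group, the share was 2.55% (95% Wilson interval 2.50% to 2.60%) without and 2.91% (2.87% to 2.95%) with injury, a ratio of 1.14 (1.11 to 1.17). Rpsa alone held 30.2% of the members' counts without injury and 23.0% with injury. Without Rpsa, the other 32 genes went from 1.78% to 2.24% of all counts, a ratio of 1.26 (1.22 to 1.30), while Rpsa went from 0.771% to 0.670%.

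**Figure D1:**
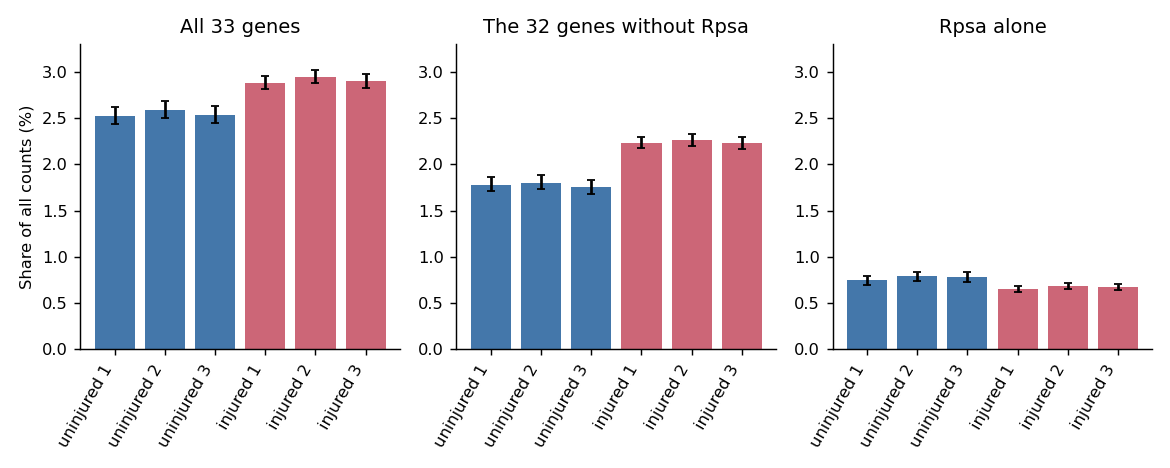
Share of all counts (percent) in each of the 6 libraries, with 95% Wilson intervals, for all 33 genes, for the 32 genes without Rpsa and for Rpsa alone. The injured bars are the higher ones in the first 2 panels, at 2.88% to 2.95% and 2.23% to 2.26%, and the lower ones in the Rpsa panel.

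Gene by gene, higher levels after injury were more frequent among the members than lower ones. Of the 32 members with a mean of at least 50 CPM over both groups, 15 (46.9%) were more than 1.5-fold higher in the injured group, where 27.6% of all 3455 genes at that level were, and 4 (12.5%) were more than 1.5-fold lower, against 22.6%. The members' median ratio was 1.47, with quartiles of 0.896 and 1.88. Over all 3455 genes the median was 1.03, with quartiles of 0.699 and 1.57. Every injured library lay above every uninjured library for 18 members (56.3%; 28.9% of all genes) and below for 5 (15.6%; 23.1%). The members are more abundant than the genes they are set beside, with a median of 340 CPM against 107 CPM, and counting noise blurs abundant genes less. Of all genes that averaged 100 CPM or more, 26.0% were past 1.5-fold higher and 21.1% lower. No share of the members was taken at that level, which is below their median, so abundance is not matched. Fau reached the mean of 50 CPM only through the injured and Rps27a only through the uninjured group. Fau is 1 of the 15 genes past 1.5-fold higher, and its ratio of 1.65 has an interval of 0.921 to 3.11. Its place among the 15 is therefore not support for a difference. The remaining member was at or under the floor of 3 counts in both groups and has no ratio.

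**Figure D2:**
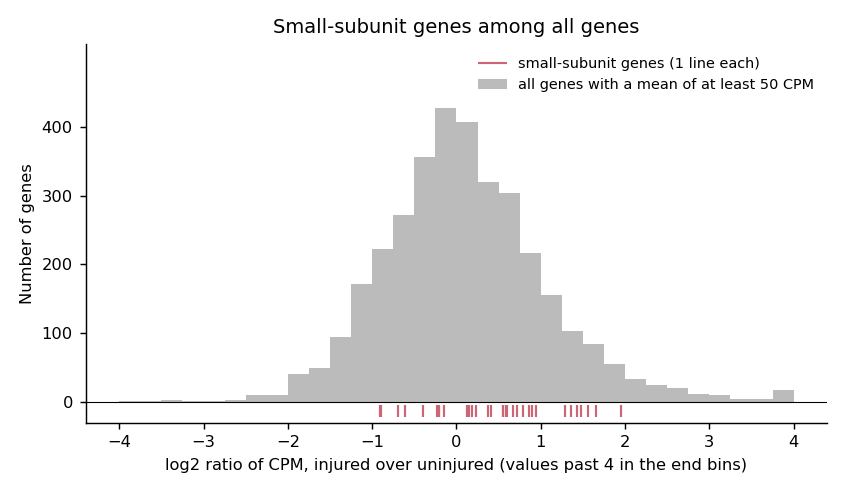
Number of genes by log2 ratio of CPM, injured over uninjured, for all genes averaging 50 CPM or more (grey bars, values past 4 placed in the end bins), with 1 red line below the axis for each of 32 members. The members' lines spread from -0.91 for Rps26 to 1.95 for Rps25, with most of them to the right of 0.

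The highest ratio was that of Rps25 (ENSMUSG00000009927), which encodes a head protein that several viral internal ribosome entry sites need. Its levels were 103, 60.03 and 103 CPM in the uninjured and 330, 355 and 345 CPM in the injured libraries. The lowest injured library stood far above the highest uninjured one, and the injured libraries lay close together. Summed, uninjured stood at 88.8 CPM (60.3 to 126) and injured at 344 CPM (299 to 392), giving a ratio of 3.87 (2.65 to 5.83). Rps23 (ENSMUSG00000049517), whose protein lies at the decoding centre, had 86.0, 68.6 and 51.6 CPM without and 208, 203 and 199 CPM with injury. Its groups did not overlap, at a ratio of 2.96 (1.90 to 4.78).

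Rps3 (ENSMUSG00000030744) and Rps9 (ENSMUSG00000006333), whose proteins line the entry of the mRNA channel, were also higher, but their libraries scattered. Rps3 had 51.6, 180 and 94.7 CPM in the uninjured and 359, 383 and 284 CPM in the injured libraries, a ratio of 3.14 (2.22 to 4.56). The groups did not overlap. When 1 library was left out the ratio ranged from 2.49 to 4.67, the highest without the second uninjured library. Rps9 had 8.60, 85.8 and 112 CPM without and 269, 189 and 114 CPM with injury. Its highest uninjured library almost met its lowest injured one, and its ratio of 2.77 (1.78 to 4.49) ranged from 1.93 to 4.04 when 1 library was left out. Its variance between libraries was 4.88 times counting noise in the uninjured and 6.71 times in the injured group, the most among the members in each group.

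Rps20 (ENSMUSG00000028234), a head protein that is ubiquitinated when ribosomes collide, had 258, 223 and 215 CPM in the uninjured and 722, 516 and 634 CPM in the injured libraries. Each injured library lay far above each uninjured one, and the ratio was 2.69 (2.11 to 3.46). Rps29 (ENSMUSG00000034892), a small zinc-binding head protein, had 129, 111 and 172 CPM against 264, 402 and 388 CPM, with no overlap and a ratio of 2.56 (1.86 to 3.57). Rps3a1 (ENSMUSG00000028081), which lies at the mRNA exit side, had 224, 394 and 301 CPM against 793, 785 and 667 CPM, again without overlap, at a ratio of 2.44 (1.98 to 3.04). These 7 genes were the only members more than 2-fold higher.

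A second group lay between 1.5-fold and 2-fold. Rack1 (ENSMUSG00000020372), the scaffold that also binds protein kinase C, had 267, 266 and 293 CPM in the uninjured and 477, 554 and 558 CPM in the injured libraries. The groups were clearly apart, at a ratio of 1.92 (1.53 to 2.44). Rps4x (ENSMUSG00000031320), encoded on the X chromosome, had 895, 1003 and 1033 CPM against 1685, 1779 and 1840 CPM, with no overlap and a ratio of 1.81 (1.60 to 2.05). Rps28, at the mRNA exit, had a ratio of 1.86 (1.63 to 2.13) and Rps12 one of 1.73 (1.22 to 2.49), and neither had overlapping groups. Rps7 had a ratio of 1.52 (1.31 to 1.76) without overlap.

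Rps24 (ENSMUSG00000025290), one of the genes mutated in Diamond-Blackfan anaemia, marked the threshold. Its levels were 2409, 2444 and 2332 CPM without and 3568, 3606 and 3609 CPM with injury. The libraries within each group were tight and the groups far apart, and the ratio of 1.501 (1.39 to 1.63) lay just inside; Rps27, at 1.47 (1.12 to 1.95), and Rps19, at 1.46 (1.12 to 1.94), lay just outside. On a TMM scale, Rps24 (1.43) and Rps7 (1.44) fell within 1.5-fold. Past 1.5-fold whichever library was left out were 11 of the 15 genes, and Rps7, Rps24 and Fau were not among them. For Rps7 and Rps24, a choice of 3 libraries each brought the ratio under the threshold, to 1.47 and 1.48 at the lowest. Because the libraries of a group count as 1 sample, leaving 1 out removes reads and is no check across animals.

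**Figure D3:**
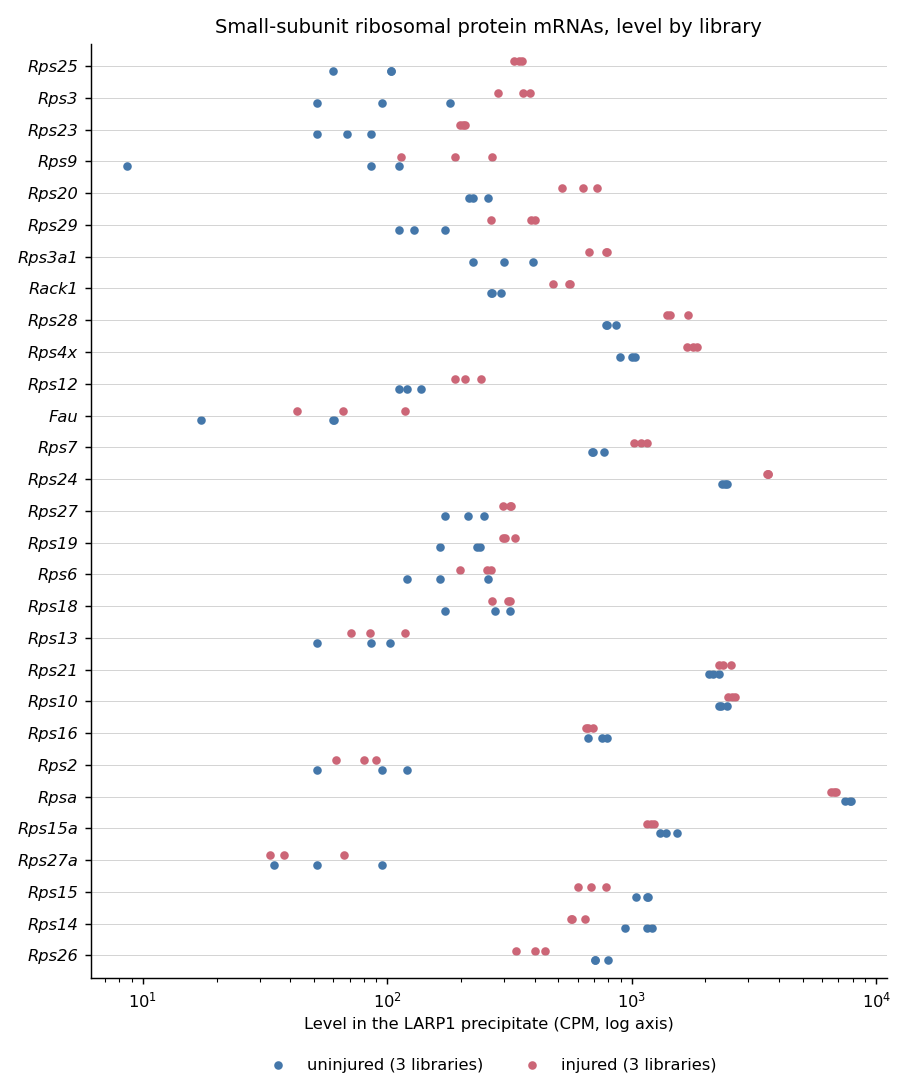
Level (CPM, log axis) of 29 members in each of the 3 uninjured (blue) and 3 injured (red) libraries, ordered by the ratio of the groups. The colours separate for Rps25, Rps23 and Rps20 at the top and, in the opposite order, for Rps26, Rps14 and Rps15 at the bottom, and the 3 uninjured points of Rps9 scatter from 8.60 to 112 CPM.

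Some members went the other way. Rps26 (ENSMUSG00000025362), whose protein contacts the mRNA upstream of the start codon, had 705, 798 and 706 CPM in the uninjured and 335, 402 and 440 CPM in the injured libraries. Every injured library was below every uninjured one, and the group levels of 736 CPM (649 to 832) and 392 CPM (345 to 444) gave an uninjured level 1.88 times the injured one (1.57 to 2.24). Rps14 (ENSMUSG00000024608), a platform protein, had 1213, 935 and 1153 CPM against 642, 568 and 563 CPM. Its groups did not overlap, and uninjured over injured gave 1.86 (1.61 to 2.15). Rps15 (ENSMUSG00000063457), a head protein close to the decoding site, had 1161, 1038 and 1153 CPM against 604, 781 and 681 CPM. It too had no overlap, with an uninjured level 1.62 times the injured one (1.41 to 1.86).

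Rpsa (ENSMUSG00000032518), also known as the laminin receptor precursor, was the only member among the 10 most counted genes. It had 7459, 7873 and 7789 CPM in the uninjured and 6499, 6856 and 6736 CPM in the injured libraries. The difference was small and the groups did not overlap: 7707 CPM (7419 to 8004) without injury, against 6697 CPM (6497 to 6901) with it, for a ratio of 0.869 (0.828 to 0.912). Rps15a (ENSMUSG00000008683) was likewise lower in every injured library, at a ratio of 0.850 (0.757 to 0.954). On the lower side of the threshold, Rps15, at 0.616, lay past 1.5-fold and Rps27a, at 0.759, within it.

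The members made as fusions with a ubiquitin or ubiquitin-like part were sparse. Rps27a (ENSMUSG00000020460), a ubiquitin fusion, had 34.4, 51.5 and 94.7 CPM without and 37.8, 33.1 and 66.2 CPM with injury. The groups overlapped, the ratio of 0.759 had an interval of 0.418 to 1.40, and without the third uninjured library it was 1.06. Fau (ENSMUSG00000038274), with a ubiquitin-like part, had 60.2, 60.03 and 17.2 CPM against 66.1, 118 and 42.6 CPM, with overlapping groups and a ratio of 1.65 (0.921 to 3.11). Leaving out the third uninjured or the second injured library brought Fau within 1.5-fold, and over all single libraries left out its ratio was 1.19 to 2.01. At this depth a difference in either gene was not detectable.

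The remaining genes described here had ratios within 1.5-fold, and abundant ones among them were measured precisely. The intervals of Rps2, Rps6, Rps13 and Rps18 reached past 1.5-fold, so a small difference is not shown for these. Rps10 (ENSMUSG00000052146), a head protein at the mRNA entry, had 2271, 2444 and 2307 CPM without and 2634, 2569 and 2469 CPM with injury, a ratio of 1.09 (1.00 to 1.19). Rps21 (ENSMUSG00000039001) had 2151, 2273 and 2066 CPM against 2280, 2361 and 2550 CPM, a ratio of 1.11 (1.01 to 1.21). In each gene all injured libraries lay just above all uninjured ones in CPM. On a TMM scale the ratios were 1.04 for Rps10 and 1.05 for Rps21. The edgeR test described below called neither gene, and called both higher only when library totals were used without TMM factors. A difference in these 2 genes therefore depends on the scaling. Rps16 had a ratio of 0.905 (0.773 to 1.06) and Rps18 one of 1.17 (0.908 to 1.53). Rps6, the member phosphorylated by kinases downstream of mTOR, had 258, 120 and 164 CPM against 198, 256 and 265 CPM, with overlapping groups and a ratio of 1.33 (0.983 to 1.81). Rps2 and Rps13 had ratios of 0.869 (0.543 to 1.41) and 1.14 (0.714 to 1.86), and each crossed 1 when 1 library was left out. Of all 32 ratios of CPM, 19 had an interval above 1, Rps10 and Rps21 among them, 5 below 1 and 8 around 1.

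**Figure D4:**
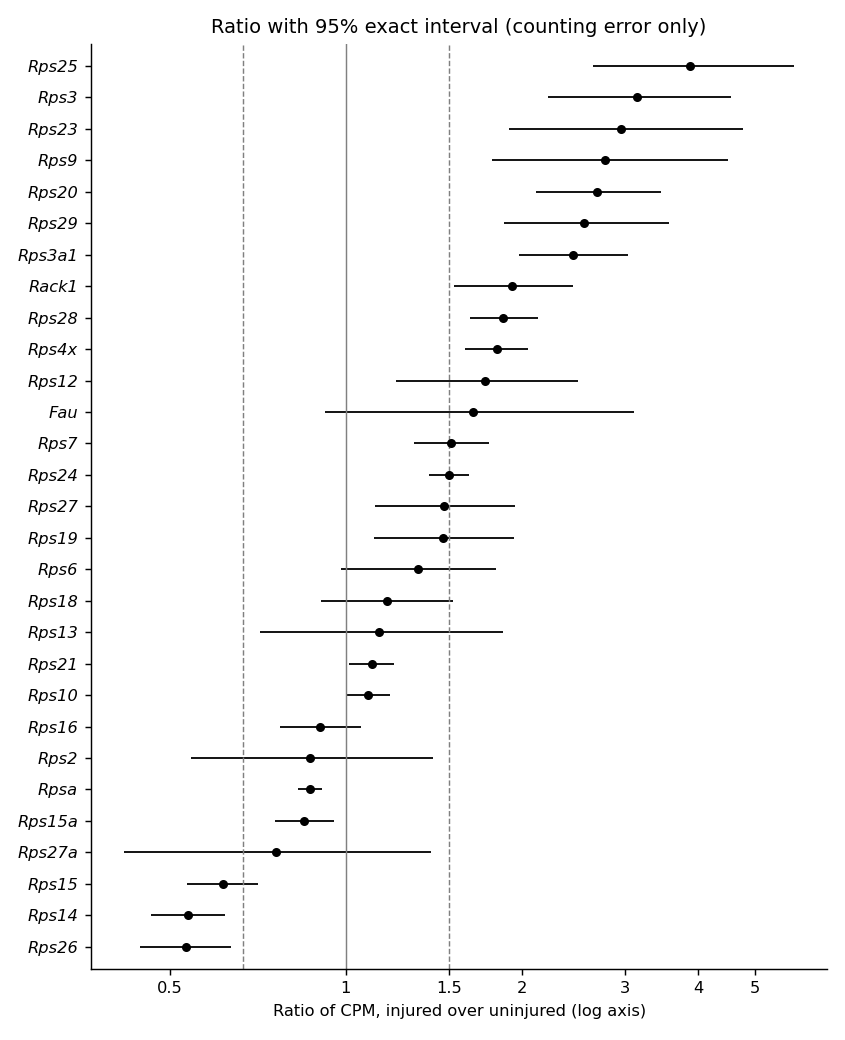
Ratio of CPM, injured over uninjured (log axis), with 95% exact intervals for counting error, for 29 members; dashed lines mark 1.5-fold in each direction. Ratios run from 0.533 for Rps26 to 3.87 for Rps25, and the narrow interval of Rpsa lies wholly below 1.

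The difference was also read from a test across all genes, edgeR's quasi-likelihood test on the 6 libraries with Benjamini-Hochberg adjustment. Because the libraries of a group count as 1 sample, it compares the reads of 2 samples and not the conditions, and no p-value of a gene is given. Of 30 members tested, 17 (56.7%) were called higher and 5 (16.7%) lower in the injured reads. Over all 3158 genes tested, the shares were 24.9% and 22.1%. Counting noise blurs abundant genes less, as stated above, and no share over abundant genes alone was taken for these calls. The filter on low counts removed 3 members, among them Rps27a and Fau. Rps3, Rps3a1, Rps4x, Rps7, Rps20, Rps23, Rps24, Rps25, Rps28, Rps29 and Rack1 were called higher, and Rpsa, Rps14, Rps15 and Rps26 lower, under all 13 alternatives of tool, scaling, filter, pairing and left-out library. Of the other calls, Rps9 was lost with DESeq2, without a filter and without the first uninjured library, and Rps12, Rps19 and Rps27 were each lost with DESeq2 and when either of at least 2 of the 3 uninjured libraries was left out. Rps15a was lost with DESeq2 and without a filter.

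Where a spread between animals was assumed in place of the spread between libraries, fewer calls were made. With summed counts, edgeR's exact test and a coefficient of variation of 0.2, a setting chosen after the data were seen, 6 of the 30 members were called higher (9.66% of all genes): Rps3, Rps3a1, Rps20, Rps23, Rps25 and Rps29. None was called lower in that test (5.57% of all genes). With 0.4, no member was called in either direction, against 1.33% of all genes higher and 0.158% lower.

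The genes were also grouped by properties that do not come from these data, and every class in the plot by class held genes on each side of 1; medians are over members with a ratio and no difference between classes was tested. The 15 head proteins together had a ratio of 1.30 (1.24 to 1.37) and the 18 body and platform proteins one of 1.08 (1.05 to 1.11). The medians over genes were 1.60 and 1.40, with ranges of 0.616 to 3.87 and 0.533 to 2.96. The body sum leans on 1 gene. Without injury the body class held 72.5% of the members' counts, and Rpsa, in that class at a ratio of 0.869, held 30.2%. A body sum without Rpsa was not taken. Proteins with a counterpart in bacteria, 15 in all, had a summed ratio of 0.938 (0.905 to 0.972), and the 17 found in eukaryotes and not bacteria, Rack1 aside, one of 1.36 (1.32 to 1.42). The medians over genes were 1.17 for all 15 and 1.49, and the ranges of the classes overlapped. Without Rpsa, the bacterial-type class had a summed ratio of 1.03 (0.973 to 1.08) and a median of 1.24.

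Ratios of genes with and without a pyrimidine run near the annotated start overlapped by each rule for a run. By the wider rule, at least 5 pyrimidines and up to 25 bases away, the 22 genes with a run had ratios from 0.533 to 3.87 with a median of 1.40; only Rps28, Rps3a1 and Rps4x had none, and theirs lay between 1.81 and 2.44, inside that range. By the stricter rule, the 10 genes with a run of at least 8 bases within 5 bases of the start had ratios from 0.533 to 2.77 with a median of 1.40. The 15 genes with a start window and no such run had ratios from 0.616 to 3.87 with a median of 1.52. With at least 8 pyrimidines and up to 25 bases away, the medians were 1.49 with and 1.46 without a run. With at least 5 pyrimidines within 5 bases, they were 1.33 and 1.62. Rps26, with the lowest ratio, had a run by every rule. Rps25, with the highest, had one only where up to 25 bases were allowed. Whether the run bears on the ratio was not tested. 

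Copies in the genome bear on how reads were assigned. Processed pseudogenes of ribosomal protein genes are near-identical to the mRNA, and Salmon divides reads among similar transcripts by estimation, so each count here is uncertain to that degree. RefSeq names 119 pseudogenes after 24 of the 33 members, among them 23 after Rps12, 13 after Rps19 and 12 each after Rpsa and Rps2. Only pseudogenes with the member's symbol followed by -ps were counted. Copies named otherwise are missed, so a member with no named pseudogene may still have copies. The 9 members with no named pseudogene had a median ratio of 1.92, the 15 with 1 to 4 one of 1.49, and the 9 with at least 5 one of 1.14. Summed by class in that order, the ratios were 1.36, 1.26 and 0.907, with Rpsa in the last class. Rpsa held 2690 of that class's 3532 uninjured counts and 4250 of its 5826 injured counts. The last sum therefore largely follows 1 gene, and a sum without Rpsa was not taken. Each class held ratios on both sides of 1. The part of the copies in the result was not tested. Libraries varied by more than 3 times counting noise for Rps3, Rps6 and Rps9 in the uninjured group. In the injured group they did so for Rps9, Rps20, Rps28, Rps29 and Fau. These are 3 and 5 of the 32 members with at least 15 counts. Over all genes with that many counts, the shares were 6.32% and 6.06%.

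**Figure D5:**
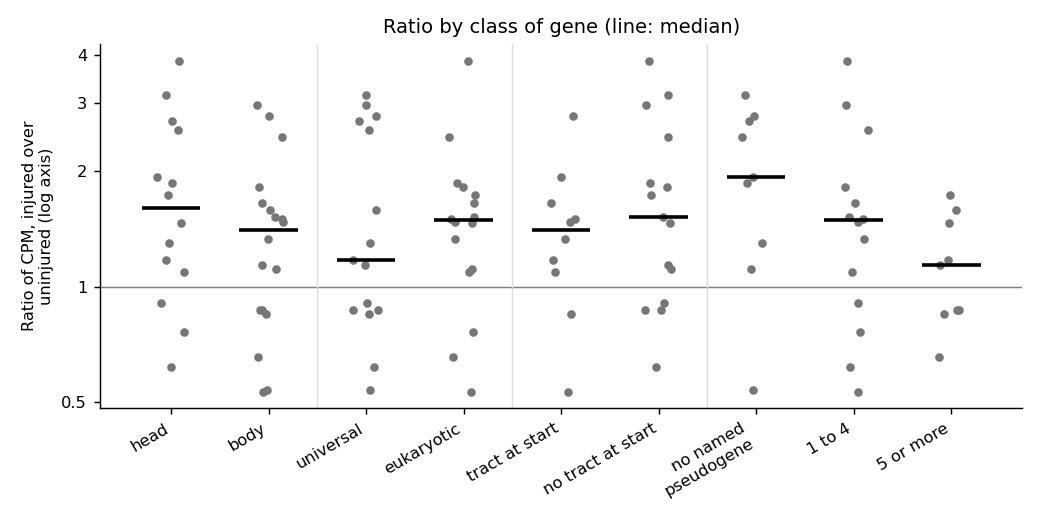
Ratio of CPM, injured over uninjured (log axis), of each member by class: place in the subunit, conservation, pyrimidine run at the annotated start, and number of pseudogenes named after it; bars are medians, and the member without a ratio, the 8 genes without a start window and, for conservation, Rack1 are left out. Every class holds ratios on each side of 1, and the medians by pseudogenes are 1.92, 1.49 and 1.14.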

How the data were processed

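The authors deposited estimated counts by Ensembl identifier without normalization. Build GRCm39 (mm39), minimap2 and Salmon are named per the submitters' processing notes, with versions, annotation and filters not given in the sources used here. All values were whole. Groups came from the sample titles and columns were matched by library name. The fit used edgeR 4.0.16 in R 4.3.3 with TMM, filterByExpr and an adjusted threshold of 0.05, over the whole table, and was tested on simulated data; ratios and intervals used scipy 1.17.1. A total of 3 counts is 8.60 CPM in the summed uninjured and 4.73 CPM in the summed injured group. CPM ratios lie 0.07 above TMM ratios in log2, and all 32 members keep their side of 1 on the TMM and DESeq2 scales. Alternatives were limma-voom (limma 3.58.1), DESeq2 1.42.0, other scalings and filters, a replicate block, thinning and leaving out libraries. Members and lists were chosen with earlier results of these data known. All members may be named; values in every library were set for the 5 highest and 5 lowest ratios, the 5 highest levels, Rpsa, Rack1, Rps27a and Fau, and those of Rps29, Rps3a1 and Rps6 were added. Single results of 4 members are not reported here; they stay in the counts and sums. The gene lists of other pathways and of cell types, and Larp1 itself, were not analysed here: 0 identifiers of the gene table could be paired with Ensembl.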

Additional observations from a re-analysis of the deposited data

How the results depend on the processing

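All ratios rest on 1 sample per group, and sparse members such as Rps9, with 24 uninjured counts, have wide intervals. The ratio of the members' summed share, 1.14, was 1.08 with TMM-scaled totals, 1.09 with DESeq2 size factors, 1.18 without the 10 most abundant genes and 1.26 without Rpsa, added after seeing the data; leaving out 1 library gave 1.13 to 1.15. Of 30 members tested, 17 were called higher and 5 lower; DESeq2, which tested 32, called 11 and 4, and an assumed coefficient of variation of 0.2 gave 6 and 0, and of 0.4 gave 0 and 0, since the assumed spread exceeds that between libraries. The replicate block gave 16 and 5; same-numbered libraries deviated together at correlations of 0.01, 0.03 and -0.02 over 3455 genes, so the numbers are not taken as pairs. Leaving out 1 library gave 13 to 17 higher and 5 to 6 lower calls. At 2-fold in place of 1.5-fold, 7 members were higher and 0 lower instead of 15 and 4; leaving out 1 library gave 12 to 16 and 3 to 4. A pyrimidine run near the start was found in 22 of 25 genes, in 13 when it had to begin within 5 bases, in 14 when it needed 8 bases, and in 10 with both, added after seeing the data. The denominator without mitochondrially encoded genes was not run, since those are not named here.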
